A study of Mus musculus with 46 samples.

Results

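The miR-17-92 and miR-106b-25 clusters give rise to the 9 mature mouse miRNAs described here, which were chosen by name from the 1881 miRNAs of the deposited table. The members of miR-17-92 are mmu-miR-17-5p, mmu-miR-18a-5p, mmu-miR-19a-3p, mmu-miR-20a-5p, mmu-miR-19b-3p and mmu-miR-92a-3p, and those of miR-106b-25 are mmu-miR-106b-5p, mmu-miR-93-5p and mmu-miR-25-3p (mmu, for mouse, is left out below). They were measured in total RNA of heart, liver and brain of male C57BL6 mice of an Il1a knock-out strain, so that all groups carry this deletion. The organs were cut into pieces that were left either in the cold (4 °C) or at room temperature (RT) over 0, 1, 3, 6, 12, 24, 48 or 96 h before the RNA was stabilised, and the RIN value of each piece, which falls as RNA degrades, is given in the labels. The hours are those of the labels. For the fifth time point the written methods name a slightly later hour. The 45 arrays analysed were 7 heart, 6 liver and 8 brain arrays of 4 °C and 8 arrays of each tissue of RT. Each array held 1 piece of 1 organ, and the pieces of a tissue and a temperature came from 1 animal and lay on 1 slide, so that within a tissue the temperature cannot be told apart from the animal and the slide. By the written methods the 3 tissues of a temperature were of the same individual, so that the 6 slides stand for 2 animals. The place of an array on its slide went with the storage time as well, so that these cannot be told apart either. No time point has a replicate, and the p-values of the slopes measure only the spread between pieces. Those of the tissue comparisons measure the spread between the slide means of a tissue. The test of liver arrays by RIN value pools the pieces of both liver slides.

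Both clusters are transcribed as long primary transcripts that are cut into several miRNAs, and MYC is a well known activator of miR-17-92. Their members bind the mRNAs of Cdkn1a, a brake of the cell cycle, and of Bim, which starts cell death. They are known for high levels in dividing and blood-forming cells and for lower levels in resting adult tissue. The members fall into families by the seed, bases 2 to 8 of the mature strand, through which a miRNA finds its targets.

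The mature sequences are shown because the seed sets the families and because nearly equal sequences limit what an array can tell apart. They are taken from RefSeq with its build GRCm38.p6, 5′ to 3′, with the seed in capitals. The 9 members matched 9 names of that table. The first 4 share the seed of the miR-17 family, and the last of these lines is miR-20b-5p of the related miR-106a-363 cluster.
miR-17-5p: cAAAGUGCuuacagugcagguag
miR-20a-5p: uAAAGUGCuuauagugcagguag
miR-106b-5p: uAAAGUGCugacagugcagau
miR-93-5p: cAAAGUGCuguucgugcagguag
miR-18a-5p: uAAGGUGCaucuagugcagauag
miR-19a-3p: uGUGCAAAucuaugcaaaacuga
miR-19b-3p: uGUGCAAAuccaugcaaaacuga
miR-92a-3p: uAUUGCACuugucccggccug
miR-25-3p: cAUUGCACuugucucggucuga
miR-20b-5p: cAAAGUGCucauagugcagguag

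The 6 hairpins of miR-17-92 lie within 836 bases at chr14:115043671-115044506 on the plus strand, and no protein-coding gene spans them. The 3 hairpins of miR-106b-25 lie within 498 bases at chr5:138165321-138165818 on the minus strand, inside the bounds of Mcm7 (chr5:138164583-138172111), which encodes a subunit of the helicase that opens DNA for replication. Mature miR-19b-3p and miR-92a-3p are also made from the X-linked genes Mir19b-2 (chrX:52741983-52742066) and Mir92-2 (chrX:52741838-52741928) of miR-106a-363, so that their level cannot be given to 1 locus. Of the 23 bases, miR-19a-3p and miR-19b-3p differ at 1 position, and miR-20a-5p differs from miR-17-5p and from miR-20b-5p at 2 positions each. Signal shared by such pairs through cross-hybridisation was not tested, and their separate values are uncertain.

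All values are on the log2 scale of the deposited table, which was normalised by variance stabilising normalisation (VSN), unless stated otherwise. Probes differ in brightness, so that levels are compared between arrays for 1 miRNA and not between miRNAs. Summed over its detected miRNAs, the signal of an array was 153088 to 541770, 268 to 798 miRNAs carried the detection flag, and 0 spots were saturated. The tissue labels were checked on miR-1a-3p, miR-133a-3p and miR-208a-3p for heart, miR-122-5p and miR-192-5p for liver and miR-124-3p and miR-9-5p for brain, and each was higher on every array of its tissue than on any array elsewhere. The liver array of 0 h at 4 °C stood apart as the lowest of its slide for all 9 members. In heart the 4 °C array without storage (0 h) is left out. The study set that array aside too. Of the 9 members, 7 were detected on all 45 arrays, whereas miR-17-5p was detected on 32 and miR-18a-5p on 26. In brain, miR-18a-5p was detected on 1 of 8 arrays at each temperature, so that its values there lie near the background.

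**Figure D1:**
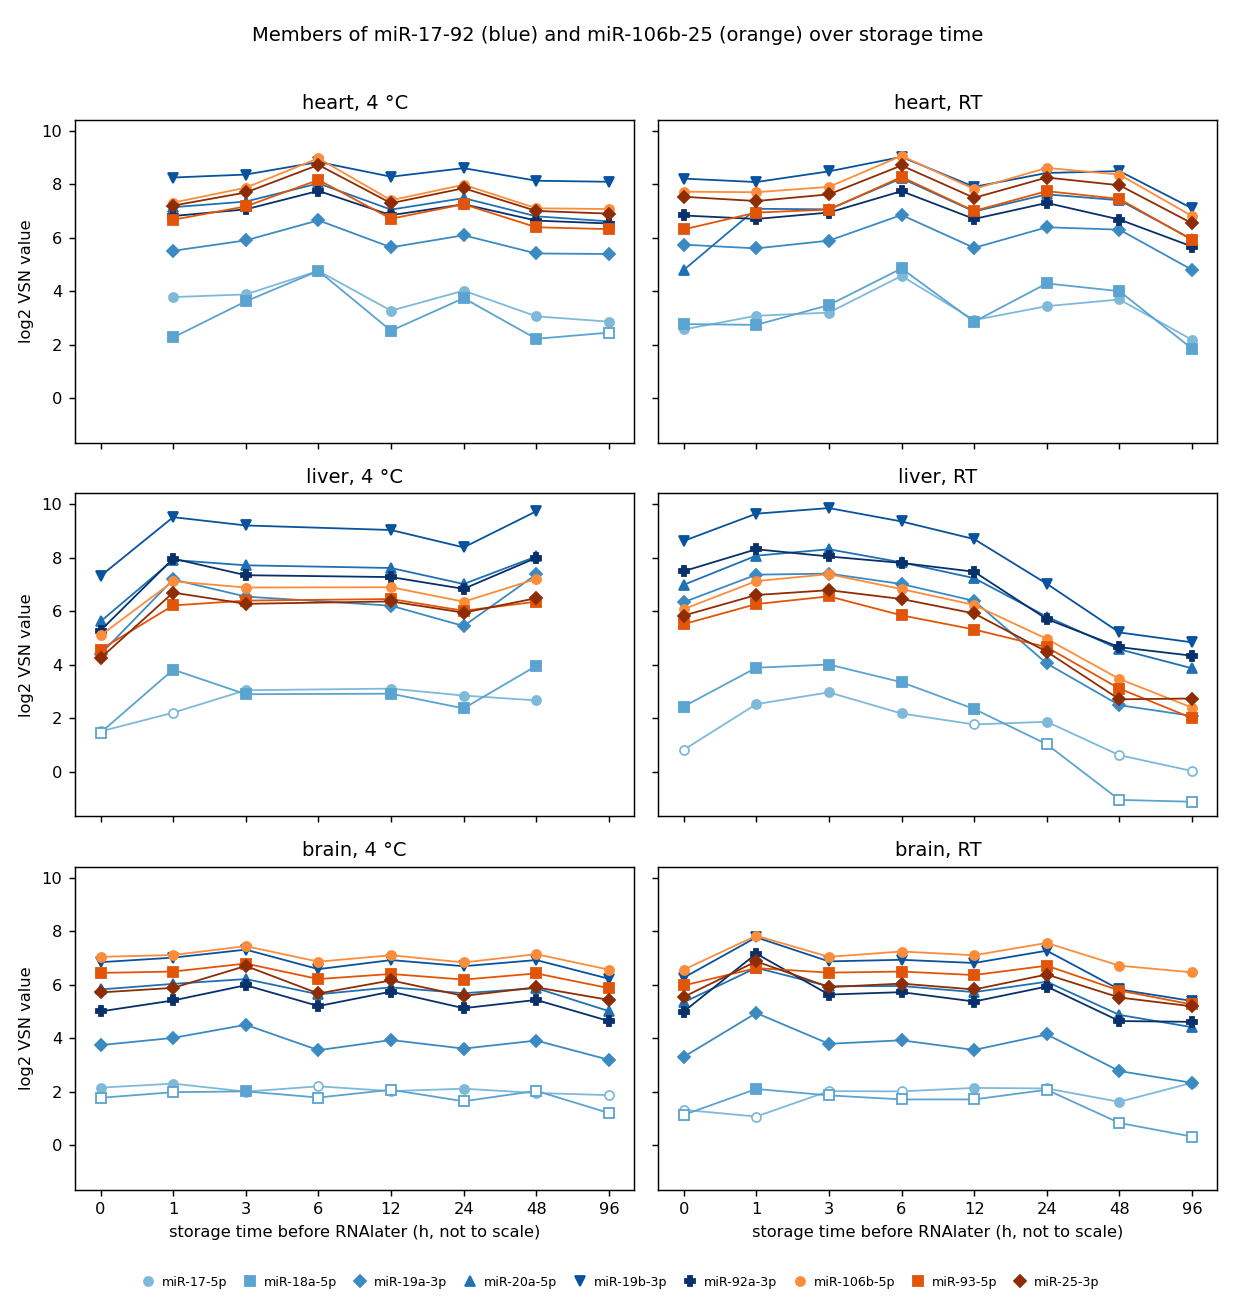
Log2 VSN value of the 9 members (y axis) over storage time in hours (x axis, spaced evenly and not to scale) for each tissue and temperature, 1 array per point, with open symbols where the miRNA was not detected. On the liver slide of RT the members detected on all arrays are highest at 1 or 3 h and lowest from 24 h on, while both heart slides peak at 6 h.

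The question of storage at RT was whether the level of a miRNA changes while the tissue lies outside the stabilising reagent. In liver, all 9 members fell over the 96 h. For miR-19b-3p, the values in liver at RT were 8.63, 9.65, 9.86 and 9.36 over the first 6 h (0, 1, 3 and 6 h), then 8.70 (12 h), 7.03 (24 h), 5.21 (48 h) and 4.84 (96 h). The arrays of 24 h and later lay below every earlier array. For miR-106b-5p, the values in the same order were 6.08, 7.13, 7.39, 6.83, 6.24, 4.97, 3.47 and 2.40. Again the arrays from 24 h on did not overlap with the earlier ones. For miR-19a-3p they were 6.34, 7.37, 7.41, 7.02, 6.39, 4.05, 2.49 and 2.09, and for miR-92a-3p 7.50, 8.32, 8.05, 7.81, 7.48, 5.71, 4.66 and 4.34. The miR-17 family members miR-20a-5p and miR-93-5p followed the same course, as did miR-25-3p. Between 12 h and 96 h miR-20a-5p went from 7.24 to 3.87, miR-93-5p from 5.32 to 2.01 and miR-25-3p from 5.92 to 2.74. Relative to the 12 h array, the 96 h array kept between 5.07% (miR-19a-3p) and 11.4% (miR-92a-3p) of the level in the 7 members detected on both.

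With 1 slope per slide, the limma estimate for liver at RT was −1.42 ± 0.19 per 24 h (SE) for miR-19a-3p (adjusted p = 8.0e-08), the steepest, and −0.56 ± 0.15 for miR-17-5p (adjusted p = 0.0015), the flattest. miR-19b-3p had −1.30 ± 0.16, miR-106b-5p −1.22 ± 0.16, miR-93-5p −1.09 ± 0.15 and miR-92a-3p −1.03 ± 0.17. All 9 of 9 members passed the test downwards, beside 34.1% of the 815 miRNAs tested. The median slope was −1.09 over the members and 0.15 over all miRNAs tested. Among the other 173 miRNAs detected on every array the median was −0.28, and 48.0% of them fell. The fall was shared by miRNAs of liver cells and vessels: mmu-miR-122-5p, the main miRNA of hepatocytes, went from 14.77 at 12 h to 11.19 at 96 h, and mmu-miR-126a-3p of endothelium from 9.83 to 5.02. Of the blood and vessel lists, 2 of 3 red blood cell miRNAs, 4 of 4 white blood cell miRNAs and 3 of 3 vessel miRNAs fell in liver at RT, and the remaining red blood cell miRNA, miR-486a-5p, rose by 0.40 ± 0.12 per 24 h (adjusted p = 0.0030). In a piece of tissue, fewer cells of a type and less RNA per cell cannot be told apart. All 9 slopes stayed below 0 under each of 4 other scalings, where 8 or 9 members passed the test, and 8 or 9 passed with any 1 array left out. The share of all miRNAs called is not given for these alternatives. On the unscaled signal, where the 0 h array was dim, the 12 h array was 5.47-fold (miR-92a-3p) to 13.7-fold (miR-19a-3p) above the 96 h array. Counted from the 0 h array the drop was smaller, with a signal of 90.3 at 0 h against 48.3 at 96 h for miR-92a-3p. For miR-19a-3p the signal was 40 at 0 h and 9.01 at 96 h.

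**Figure D2:**
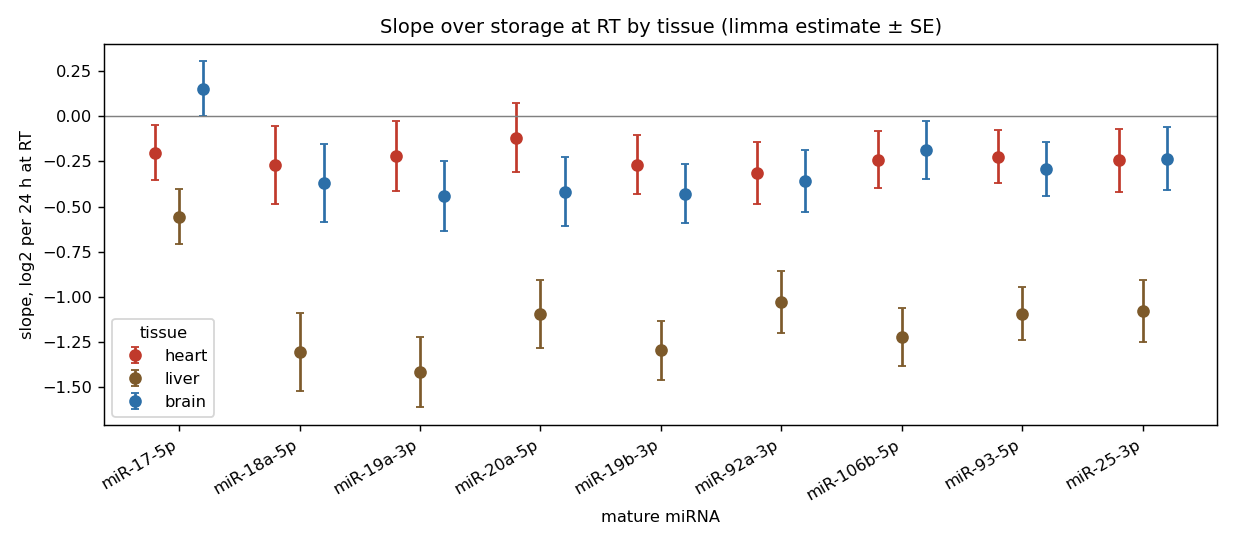
Slope over storage at RT in log2 units per 24 h (y axis) with its SE from limma for the 9 members (x axis), with 1 colour for each tissue. The liver slopes lie between −1.42 and −0.56, below those of heart and brain.

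In heart at RT the members had their highest value at 6 h, and no slope passed the test. For miR-19b-3p in heart at RT the values were 8.22, 8.09, 8.49, 9.03, 7.91, 8.43, 8.50 and 7.11 from 0 to 96 h, and for miR-106b-5p they were 7.73, 7.71, 7.91, 9.07, 7.83, 8.62, 8.37 and 6.82. The 96 h array was the lowest of the slide for both. miR-20a-5p stood apart in that its lowest value was at 0 h, with 4.80 against 5.95 to 8.23 at the other times. The slopes lay between −0.31 and −0.12 per 24 h, and 0 of 9 members passed the limma test (0 at an unadjusted p under 0.05), beside 18.8% of all miRNAs downwards.

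In brain at RT, 1 of 9 members passed the test downwards, beside 17.3% of all miRNAs, and 4 had an unadjusted p under 0.05. The member that passed was miR-19b-3p, with −0.43 ± 0.16 per 24 h (adjusted p = 0.033). Its values in brain at RT were 6.26, 7.77, 6.87, 6.93, 6.81, 7.27, 5.82 and 5.39, so that the arrays of 48 h and 96 h lay below all others. miR-106b-5p had 6.56, 7.83, 7.04, 7.24, 7.10, 7.56, 6.71 and 6.46, and there the 0 h array lay among the late ones. Averaged over 48 and 96 h and set against the mean of 0 to 3 h, the difference was −1.45 for miR-19a-3p, −1.36 for miR-19b-3p, −1.33 for miR-20a-5p and −1.30 for miR-92a-3p, against −0.83 for miR-93-5p, −0.75 for miR-25-3p and −0.56 for miR-106b-5p. The always detected members of miR-17-92 thus had the larger differences in brain, which is a description without a test. miR-17-5p, detected on only 4 of the 8 arrays, was higher by 0.50.

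The slope of liver lay below that of heart for 8 of 9 members, beside 19.4% of all miRNAs, with differences from −1.20 ± 0.27 for miR-19a-3p (adjusted p = 0.0011) to −0.71 ± 0.24 for miR-92a-3p (adjusted p = 0.020). For miR-17-5p the difference of −0.36 ± 0.21 did not pass (adjusted p = 0.23). Against brain, the liver slope was lower for 9 of 9 members, beside 20.7% of all miRNAs, with differences from −1.04 ± 0.22 (miR-106b-5p, adjusted p = 0.00069) to −0.67 ± 0.24 (miR-92a-3p, adjusted p = 0.027). Without the brain array of 96 h at RT, 0 members passed against brain. Between brain and heart 0 of 9 members differed in slope (0 at an unadjusted p under 0.05 by limma), beside 0.368% of all miRNAs downwards, with differences from −0.30 ± 0.27 for miR-20a-5p to 0.35 ± 0.21 for miR-17-5p. As the mean of the 3 tissues, 9 of 9 members fell at RT, beside 38.8% of all miRNAs, with slopes per 24 h from −0.69 ± 0.11 (miR-19a-3p) to −0.20 ± 0.09 (miR-17-5p). Without scaling between arrays 2 of 9 passed, miR-19a-3p and miR-19b-3p, and miR-17-5p had a slope of 0.11, while the median of all miRNAs moved from 0.07 to 0.40.

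At 4 °C no slope was detectable with these arrays. The mean slope of the tissues lay between −0.04 and 0.08 per 24 h, and 0 of 9 members passed the limma test (0 at an unadjusted p under 0.05), beside 0.245% of all miRNAs downwards. This mean joins slopes of both signs. The member slopes were 0.27 to 0.57 in liver, whose arrays end at 48 h. They were −0.32 to −0.10 in heart and −0.21 to −0.08 in brain. In each tissue 0 of 9 passed, beside 23 of 815 miRNAs upwards and 1 downwards in liver and 0 in heart and brain. In liver at 4 °C, miR-19b-3p had 7.32, 9.52, 9.21, 9.04, 8.39 and 9.74 for storage of 0, 1, 3, 12, 24 and 48 h. The highest value was thus that of 48 h, the piece with the lowest RIN value of this slide, 3.4, and the lowest was the 0 h array that stood apart. miR-106b-5p had 5.10, 7.12, 6.89, 6.90, 6.36 and 7.21 at the same times, with the same arrays at the ends. In brain at 4 °C, miR-19b-3p ranged from 6.22 to 7.31 with a median of 6.88, and its lowest value was that of 96 h. The difference between RT and 4 °C in the mean slope passed for 8 of 9 members, beside 28.0% of all miRNAs, from −0.77 ± 0.20 for miR-19a-3p (adjusted p = 0.0025) to −0.52 ± 0.15 for miR-93-5p (adjusted p = 0.0064), and miR-17-5p had −0.16 ± 0.16 (adjusted p = 0.41). Without the liver array of 48 h at 4 °C 0 members passed, without the heart array of 96 h at 4 °C 5 and without the heart array of 96 h at RT 3. This count also fell to 0 without scaling between arrays.

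The RIN value answers another question, whether degraded RNA gives lower readings. Within liver at RT, RIN value and level did not fall together at every step. The RIN values were 7.1, 6.0, 4.1, 2.8, 2.7, 2.7, 2.4 and 2.3 from 0 to 96 h. From 0 to 12 h the RIN value thus fell from 7.1 to 2.7, while the 8 members other than miR-17-5p differed between these arrays by −0.20 (miR-93-5p) to 0.25 (miR-20a-5p) and miR-17-5p, not detected on either, by 0.95. The median difference of all 815 miRNAs between the same arrays was 0.58. The 0 h array was dim, with a summed signal of 210659 against 403352 at 1 h. From 1 h to 12 h the RIN value fell from 6.0 to 2.7, and the members were lower as well. There miR-19b-3p went from 9.65 to 8.70 and miR-93-5p from 6.27 to 5.32. The arrays of 12 h and 24 h had the same RIN value of 2.7, and there miR-19a-3p was lower by 2.34 at 24 h, miR-92a-3p by 1.77, miR-19b-3p by 1.66, miR-20a-5p by 1.44, miR-25-3p by 1.43, miR-106b-5p by 1.27 and miR-93-5p by 0.66. Of the members not detected on both arrays, miR-18a-5p was lower by 1.32 and miR-17-5p higher by 0.10. The median of all miRNAs was lower by 0.12. Each of these is a difference of 2 single arrays and has no test.

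**Figure D3:**
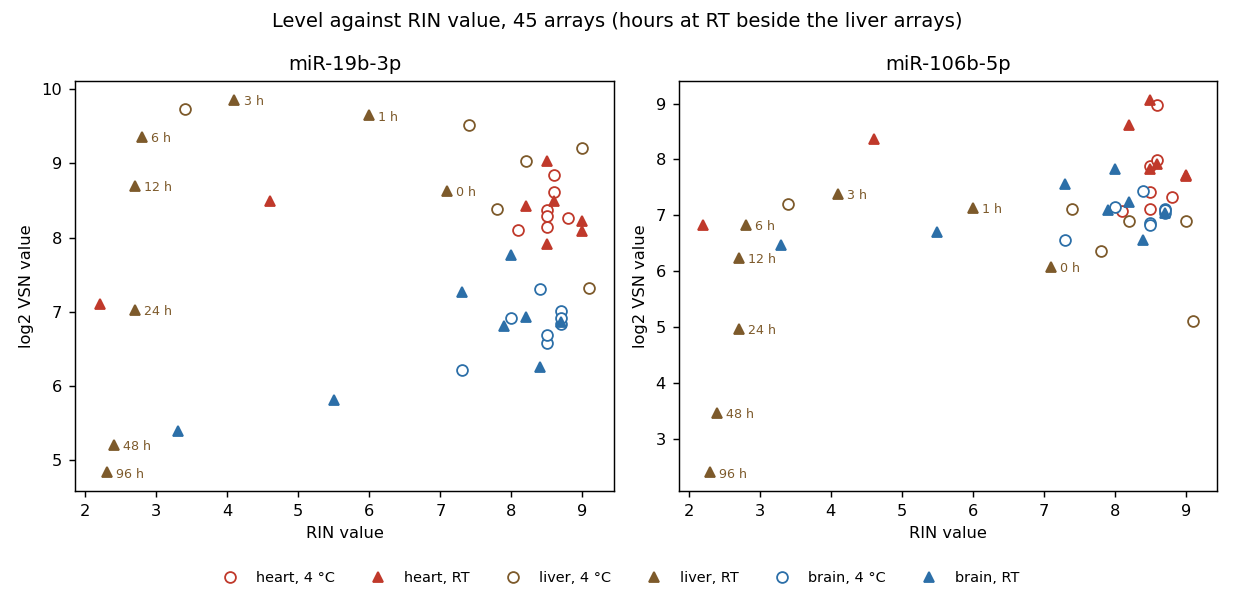
Log2 VSN value (y axis) of miR-19b-3p and of miR-106b-5p against the RIN value (x axis) on the 45 arrays, with tissue as colour, RT as filled triangles and 4 °C as open circles. The liver arrays of RT at RIN values of 2.3 to 2.8 spread from 4.84 to 9.36 for miR-19b-3p.

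With 1 slope on the RIN value common to the slides, 3 of 9 members rose with the RIN value, beside 25.9% of all miRNAs. These were miR-93-5p with 0.17 ± 0.07 per RIN unit (adjusted p = 0.041), miR-92a-3p with 0.18 ± 0.08 (adjusted p = 0.045) and miR-19b-3p with 0.19 ± 0.09 (adjusted p = 0.045). The share is close to the background. With the hours of storage in the same model, an alternative added after the data were seen, 0 of 9 members passed for the RIN value. In that model 8 of 9 fell with the hours at RT. The share of all miRNAs is not given for that model, so that neither count can be read as particular to the members. In the fit on the hours at RT alone, another model, the share was 38.8% downwards. The RIN value falls with the hours at RT, so that their parts cannot be told apart. Without the hours, the count for the RIN value ranged from 0 to 8 with 1 array left out. It was 0 without the liver array of 0, 1, 48 or 96 h at RT, the heart array of 6 or 96 h at RT or the brain array of 48 or 96 h at RT, 1 without the liver array of 24 h or the brain array of 1 h at RT or the brain array of 96 h at 4 °C, and 8 without the liver array of 0 h or 48 h at 4 °C. In liver alone, the 8 arrays with a RIN value of 6 or lower were set against the 6 with a higher one, as in the methods of the study. The members were lower by 0.24 (miR-92a-3p) to 0.85 (miR-93-5p) on the former, and 0 of 9 passed the exact Wilcoxon-Mann-Whitney test (adjusted p from 0.52 to 1.00; 0 at an unadjusted p under 0.05), beside 2.94% of all miRNAs downwards. Without scaling between arrays the same differences lay above 0 for 9 of 9 members, from 0.13 to 0.77, where the median of all miRNAs was 1.04 against 0.32 by VSN. By limma, with or without the slide as a block, 0 of 9 passed as well. Most liver arrays of low RIN value were of RT and most of the others of 4 °C. The RIN value thus goes with slide and animal here, and the exact test takes pieces of the same animal as independent.

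The levels by tissue were compared on the arrays with a RIN value over 6, averaged to 1 value per slide, with 2 slides for each tissue. These were 13 heart, 14 brain and 6 liver arrays, and the liver slide of RT gave 1 array only. The fit takes the slides as independent although the tissues share their 2 animals, and the calls that changed with the animal as a block, a fit added after the data were seen, are given beside the results. Brain had lower values than heart for all 9 members under every scaling tried, and the widest gap by VSN was that of miR-19a-3p. On the heart arrays miR-19a-3p had 5.40 as the lowest, 5.75 as the median and 6.86 as the highest value, on the liver arrays 4.40, 6.28 and 7.19 and on the brain arrays 3.19, 3.85 and 4.94. Brain did not overlap with heart. The slide means were 5.81 and 6.02 in heart, 5.96 and 6.34 in liver and 3.81 and 3.94 in brain. The difference of brain and heart was −2.04 ± 0.23 (SE, n = 2 slides a tissue, adjusted p = 0.0014 by limma). miR-25-3p followed with −1.70 ± 0.21 (adjusted p = 0.0021), miR-18a-5p with −1.52 ± 0.23, miR-19b-3p with −1.47 ± 0.18, miR-92a-3p with −1.46 ± 0.29 and miR-20a-5p with −1.23 ± 0.21. These 6 of 9 members passed, beside 12.5% of all miRNAs downwards. miR-18a-5p was detected on only 2 of the 14 brain arrays, so that its difference is uncertain in size. With the animal as a block 7 passed, miR-17-5p being the further one (adjusted p = 0.039). In the fit without the block, miR-17-5p (−1.56 ± 0.59), miR-106b-5p (−0.80 ± 0.27) and miR-93-5p (−0.70 ± 0.23) did not. The median over all 815 miRNAs was 0.43.

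**Figure D4:**
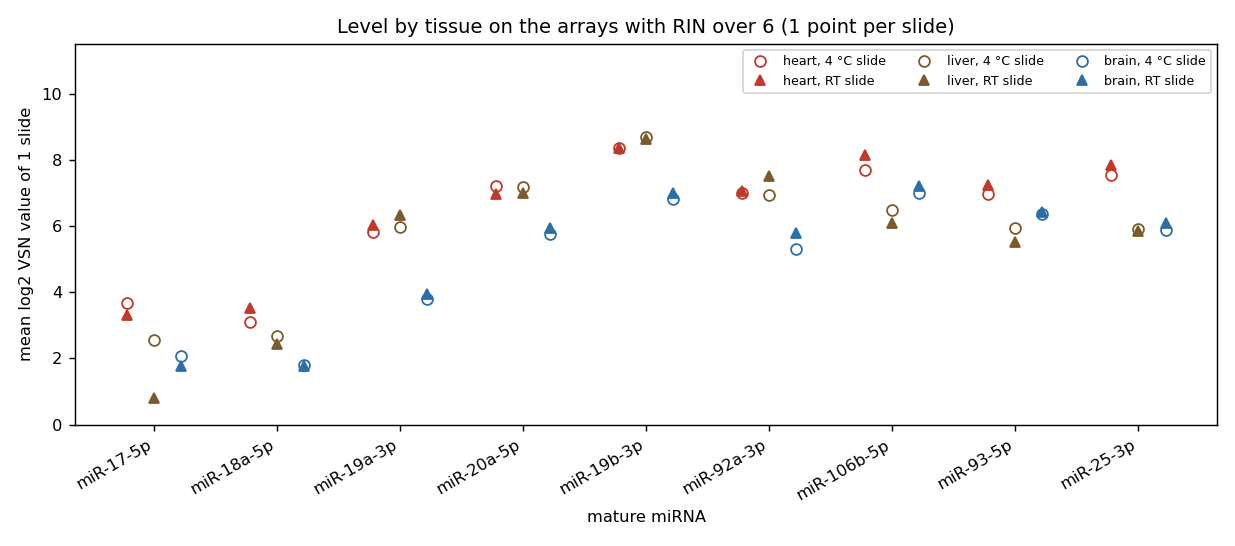
Mean log2 VSN value of 1 slide (y axis) for each of the 9 members (x axis) on the arrays with a RIN value over 6, with 1 point for each of the 6 slides. In miR-19a-3p, miR-19b-3p and miR-92a-3p both brain points lie below those of heart and liver, and in miR-106b-5p and miR-93-5p both liver points lie lowest.

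Between liver and heart the 3 members of miR-106b-25 passed the test, and the 6 members of miR-17-92 did not. The difference of liver and heart was −1.81 ± 0.21 for miR-25-3p (adjusted p = 0.0031), −1.64 ± 0.27 for miR-106b-5p (adjusted p = 0.0093) and −1.36 ± 0.23 for miR-93-5p (adjusted p = 0.011). These 3 of 9 passed downwards, beside 29.4% of all miRNAs, so that the share is close to the background. Of miR-17-92, miR-17-5p had −1.80 ± 0.59 (adjusted p = 0.069 by limma) and miR-18a-5p −0.73 ± 0.23 (adjusted p = 0.065). miR-17-5p was detected on only 3 of the 6 liver arrays. miR-20a-5p had −0.01, miR-92a-3p 0.20 and miR-19a-3p 0.23. With the animal as a block 4 passed, miR-17-5p being the further one (adjusted p = 0.034). On the single arrays, miR-25-3p ranged from 6.91 to 8.73 in heart with a median of 7.54, and from 4.25 to 6.70 in liver with a median of 6.12, so that the tissues did not overlap. miR-106b-5p had 7.08 to 9.07 in heart with a median of 7.83 and 5.10 to 7.12 in liver with a median of 6.63, which overlap. In contrast miR-19b-3p ranged from 7.91 to 9.03 in heart and from 7.32 to 9.52 in liver, with a difference of 0.30 ± 0.18 (adjusted p = 0.25). The median over all miRNAs was −0.69. It was −0.55 without scaling between arrays and 0.00 with the 75th percentile as the scale, and the cause was not tested. With the 75th percentile miR-106b-5p had −0.92, miR-25-3p −1.11, miR-19a-3p 0.96, miR-20a-5p 0.72 and miR-19b-3p 1.03, each past the test. No member was lower past the test under quantile normalisation, with or without the normexp background correction (0 of 9 each), while 3 were higher. The share of all miRNAs called is not given for these scalings. The count of 3 fell to 1 without the heart slide of RT and was 5 without the liver slide of 4 °C.

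Brain was lower than liver in 5 of 9 members, all of miR-17-92, beside 9.20% of all miRNAs downwards. miR-19a-3p differed by −2.27 ± 0.23 (adjusted p = 0.00078), miR-19b-3p by −1.77 ± 0.18, miR-92a-3p by −1.66 ± 0.29, miR-20a-5p by −1.22 ± 0.21 and miR-18a-5p, near background in brain, by −0.78 ± 0.23 (adjusted p = 0.034). With the animal as a block miR-18a-5p no longer passed (adjusted p = 0.053), which left 4. In the other direction, 1 of 9 passed, miR-106b-5p with 0.84 ± 0.27 (adjusted p = 0.042), beside 52.9% of all miRNAs upwards. That call was lost with the animal as a block (adjusted p = 0.060), turned around under quantile normalisation, where miR-106b-5p had −1.26, and was lost without any 1 of 5 slides, while 3 members were higher without the liver slide of 4 °C.

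The difference between the clusters within an array does not depend on a factor common to the array. The mean of miR-106b-5p, miR-93-5p and miR-25-3p minus the mean of the 4 members of miR-17-92 detected on all arrays was taken for each array. It is a difference between probes, so that only its change between tissues can be read. It lay between −1.68 and −0.82 on the 14 liver arrays, between 0.09 and 0.80 on the 15 heart arrays and between 0.48 and 1.48 on the 16 brain arrays, of all RIN values. The liver arrays did not overlap with those of the other tissues, while heart and brain overlapped. On the unscaled signals the ranges were −1.70 to −0.82, 0.09 to 0.81 and 0.49 to 1.53. The medians on the arrays with a RIN value over 6 were −1.10 in liver, 0.43 in heart and 0.97 in brain. Relative to these 4 members of miR-17-92, miR-106b-25 thus read lower in liver than in heart and brain on each of these arrays, at every storage time. miR-17-5p and miR-18a-5p are not in this difference. Between liver and heart they differed by −1.80 and −0.73 in the fit without the animal as a block, and neither passed there. The arrays are pieces of 2 animals, and how many other sets of miRNAs separate the tissues in this way was not counted. In brain at RT the difference was 1.48 at 48 h and 1.45 at 96 h, against 0.48 to 1.06 at the earlier times. In liver at RT it lay at −1.68 to −1.50 up to 12 h and was −0.94 at 24 h, −1.14 at 48 h and −1.40 at 96 h. Mature miR-19b-3p and miR-92a-3p can also come from the X-linked cluster, and its part in this was not tested.

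Whole organs hold blood and vessels, and the marker miRNAs of these also differed between the tissues. Brain was lower than heart in 3 of 3 red blood cell miRNAs, 3 of 4 white blood cell miRNAs and 3 of 3 vessel miRNAs. The share over all miRNAs was 12.5% downwards. Summed, the red blood cell miRNAs ranged from 12.37 to 15.15 on the heart arrays, from 8.67 to 11.12 on the liver arrays and from 9.09 to 11.26 on the brain arrays with a RIN value over 6. The white blood cell miRNAs ranged from 8.84 to 10.88, from 7.38 to 10.23 and from 7.37 to 8.67, and the vessel miRNAs from 12.06 to 12.87, from 8.23 to 10.80 and from 9.62 to 11.06. No list was at 0 in any tissue, but on this scale a value above 0 does not by itself show detection. On these brain arrays miR-18a-5p had a median of 1.82 and was detected on 2 of 14. Liver was lower than heart in 3 of 3 red blood cell, 2 of 4 white blood cell and 3 of 3 vessel miRNAs. Of all miRNAs 29.4% were lower there, while miR-19a-3p, miR-19b-3p and miR-92a-3p had differences of 0.23, 0.30 and 0.20. Between brain and liver 0 of 3 red blood cell miRNAs passed the test. In brain 3 of 4 white blood cell miRNAs were lower and 1 higher, and 2 of 3 vessel miRNAs were higher. Of all miRNAs 9.20% were lower and 52.9% higher in brain than in liver, so that the vessel count is near that share. The part of the blood and vessel miRNAs in the tissue differences was not tested.

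Within heart the members had high values on the same arrays as several blood miRNAs. The 6 h arrays of both slides had the highest value of their slide for 9 of 9 members. miR-18a-5p was 4.77 at 6 h against 2.23 to 3.75 on the other 6 heart arrays of 4 °C, and 4.86 against 2.75 to 4.30 on the other 5 of RT with a RIN value over 6. For miR-106b-5p these were 8.98 against 7.08 to 7.99, and 9.07 against 7.71 to 8.62. Over the members, the 6 h array exceeded the median of the others by 0.57 to 2.28 at 4 °C and by 0.81 to 1.99 at RT, and the least was that of miR-19b-3p at both. On the same arrays miR-451a, the main miRNA of red blood cells, was higher by 2.29 and 1.64, miR-144-3p, made from the same transcript, by 2.50 and 1.71. miR-142a-3p of white blood cells was 9.88 against 7.43 to 8.68 at 4 °C and 10.17 against 8.28 to 9.58 at RT. miR-150-5p, also of the white blood cell list, differed by only 0.04 and −0.39. The endothelial miR-126a-3p differed by −0.27 and 0.09, and of the other vessel miRNAs miR-143-3p by −0.35 and 0.20 and miR-145a-5p by −0.08 and 0.36. Since both slides carry the same time at the same place, storage time and place on the slide cannot be told apart here, and the median of all miRNAs differed by −0.01 at 4 °C and 0.41 at RT.

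**Figure D5:**
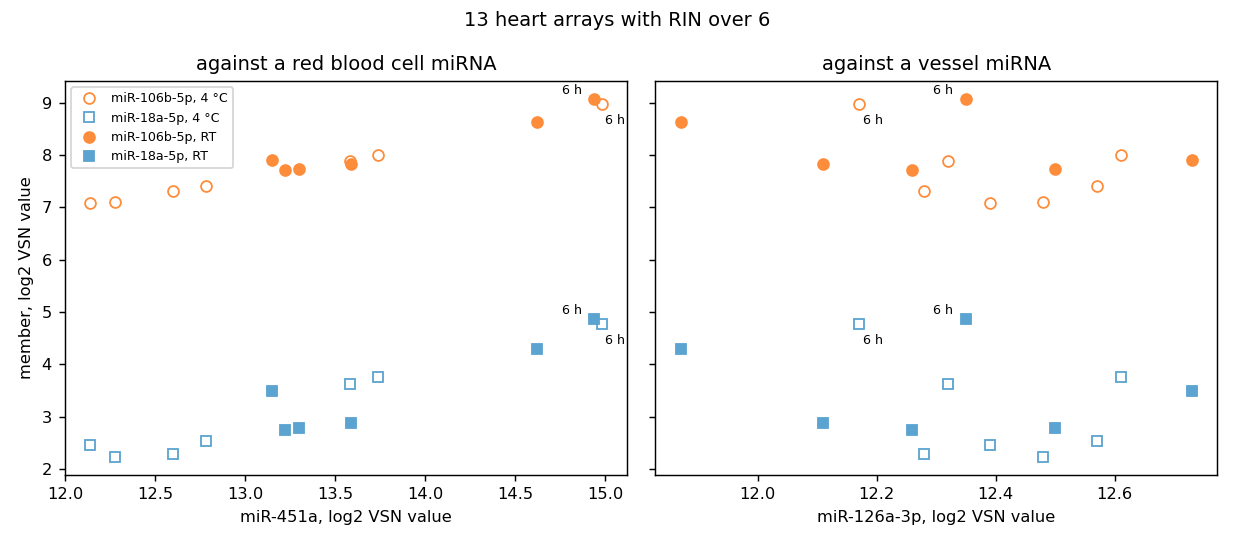
Log2 VSN values of miR-106b-5p and miR-18a-5p (y axis) against miR-451a of red blood cells (left) and miR-126a-3p of vessels (right) on the 13 heart arrays with a RIN value over 6, open for 4 °C and filled for RT. The members are highest at 6 h, where miR-451a is highest as well, and show no such order along miR-126a-3p.

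Across the 13 heart arrays, each taken minus its slide mean, the correlation with miR-451a was 0.98 for miR-106b-5p and miR-25-3p, 0.95 for miR-18a-5p, miR-19a-3p and miR-92a-3p and 0.66 for miR-20a-5p, the lowest of the members. Without the 6 h arrays it was 0.97 for miR-106b-5p and miR-25-3p and 0.50 for miR-20a-5p. With miR-126a-3p it lay between −0.38 (miR-93-5p) and 0.06 (miR-19b-3p), and between −0.39 and 0.31 without the 6 h arrays. With miR-143-3p, also of the vessel list, the median over the members was −0.10. Without the 6 h arrays that median was 0.13, with 0.57 for miR-19b-3p as the highest. No correlation was taken with miR-142a-5p, miR-150-5p, miR-486a-5p or miR-145a-5p of the blood and vessel lists. In brain the same correlations had medians over the members of 0.80 with miR-451a and 0.91 with miR-126a-3p over 14 arrays, and in liver of 0.94 and 0.98 over 6 arrays, so that there both markers went with most members. In brain miR-17-5p, detected on 7 of these 14 arrays, was the exception with −0.55 for miR-451a. The highest brain array for 7 of the 9 members was that of 1 h at RT, where miR-92a-3p had 7.16 against at most 5.98 elsewhere in brain, and miR-451a was also highest there with 11.17. These correlations describe arrays that share slides and scaling, and no p is given.

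Among the 173 other miRNAs detected on all arrays, the 5 most like the mean of the members over the 45 arrays, each taken minus its slide mean, were miR-15b-5p (r = 0.978), miR-142a-3p (0.972), miR-16-5p (0.972), miR-223-3p (0.964) and miR-140-3p (0.964). Leaving out liver at RT from 24 h on, which left 42 arrays, the r of these 5 lay between 0.912 and 0.957. The arrays share slides and scaling, and the 3 late liver arrays weigh heavily. Among the members themselves, the closest pairs were miR-19a-3p with miR-19b-3p (r = 0.990), miR-106b-5p with miR-25-3p (0.98) and miR-106b-5p with miR-93-5p (0.979). The 18 pairs within a cluster had a median r of 0.919 and the 18 pairs between the clusters one of 0.945, and the lowest was 0.592 for miR-17-5p with miR-92a-3p.

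Of the 9 opposite strands of the same hairpins, 1 was among the 815 miRNAs analysed, miR-17-3p, detected on 43 of 45 arrays. It fell in liver at RT by 0.93 ± 0.14 per 24 h (adjusted p = 4.8e-07), and also passed in heart (−0.32 ± 0.14, adjusted p = 0.049) and brain (−0.34 ± 0.14, adjusted p = 0.047). miR-17-5p, the other strand of that hairpin, was detected on fewer arrays than miR-17-3p. Of the 10 miRNAs listed for the related miR-106a-363 cluster, 9 were on the table (miR-106a-5p was not) and 3 were analysed, of which miR-20b-5p was detected on all 45 arrays. Its liver slope at RT was −1.08 ± 0.19 (adjusted p = 5.5e-06). The other 2 rose in liver at RT, miR-92a-2-5p by 0.84 ± 0.26 (adjusted p = 0.0045) and miR-18b-3p by 0.21 ± 0.07 (adjusted p = 0.0093), but were detected on only 6 and 7 of the 45 arrays. The offset between the probes of miR-20a-5p and miR-20b-5p, whose size cannot be read as a level, stayed within 0.83 to 1.09 over the 45 arrays, and within slides the values of the pair correlated at 0.999, including the low 0 h heart array of RT with 4.80 and 3.96. Whether the probes of miR-20b-5p read miR-20a-5p cannot be told apart from equal change.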

How the data were processed

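Total RNA was hybridised to 1-colour Agilent mouse miRNA arrays, scanned and read with Agilent Feature Extraction 10.10.1.1. The authors deposited a table of log2 values after VSN, which was used as deposited. The deposited scanner files gave the signal intensity and the detection flag of each miRNA. The intensity served for the unscaled and rescaled alternatives and for normexp (offset 50), which was run on median signals. Of the miRNAs, 815 detected on at least 5 arrays were analysed, and in heart the 4 °C array without storage (0 h) was left out.

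limma 3.58.1 in R 4.3.3 was fitted with an intercept for each slide and the RIN value, or with a slope on the hours for each slide (per 24 h). Tissues were compared on slide means of arrays with a RIN value over 6. The written methods pair the tissues by animal, and a fit with the animal as a block was added after the data were seen. Liver arrays up to and above a RIN value of 6 were compared by the exact two-sided Wilcoxon-Mann-Whitney test. p-values were adjusted over 815 miRNAs by Benjamini-Hochberg, with 0.05 as the threshold. The scripts were tested on simulated data. The number of arrays limits the precision.

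All 9 members are named, with the 5 miRNAs most like their mean. The members, the lists of blood, vessel and related miRNAs and the tests were chosen with earlier results of these data known. Alternatives were other scalings, detection filters, blocks and left-out arrays. The model of RIN value and hours together and the tests of liver slopes at RT were added after the data were seen.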

Additional observations from a re-analysis of the deposited data

Results flagged for a closer look

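The liver array of 0 h at 4 °C stood apart from the other 5 of its slide for miR-93-5p, with 4.57 against 6.02 as the next value (gap over range 0.765), and for miR-25-3p, with 4.25 against 5.95 (gap over range 0.695). These were 2 of 54 groups tested, and chance singles out about 1 in 20.

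The slope at RT differed between liver and heart past the limma test, per 24 h, by −0.98 for miR-106b-5p, −1.03 for miR-18a-5p, −1.20 for miR-19a-3p, −1.03 for miR-19b-3p, −0.98 for miR-20a-5p, −0.83 for miR-25-3p, −0.71 for miR-92a-3p and −0.87 for miR-93-5p. Between liver and brain it differed by −1.04 for miR-106b-5p, −0.71 for miR-17-5p, −0.94 for miR-18a-5p, −0.97 for miR-19a-3p, −0.87 for miR-19b-3p, −0.68 for miR-20a-5p, −0.84 for miR-25-3p, −0.67 for miR-92a-3p and −0.80 for miR-93-5p. The mean slope at RT differed from that at 4 °C by −0.56 for miR-106b-5p, −0.69 for miR-18a-5p, −0.77 for miR-19a-3p, −0.73 for miR-19b-3p, −0.55 for miR-20a-5p, −0.52 for miR-25-3p, −0.63 for miR-92a-3p and −0.52 for miR-93-5p. Temperature, animal and slide cannot be told apart in the last of these.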

How the results depend on the processing

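The fall in liver at RT was called for 8 or 9 members under every alternative and with any 1 array left out, and 0 members passed for the slope at 4 °C with any 1 array left out. The other counts of members called moved as follows, and the cause was not tested. The share of all miRNAs called is not given for the alternatives, so that no count here can be set against a background. For the RIN value (3 higher) the count was 8 with the 75th percentile as the scale, 8 with quantile normalisation, 9 with normexp and quantile normalisation together (below, normexp stands for both steps), 9 with tissue in place of slide, and 0 without scaling (where 1 was lower), with RIN values over 6 alone, with the 0 h heart array of 4 °C included or with the hours in the model. Without scaling, 2 members fell at RT (in place of 9) and 0 differed between RT and 4 °C (in place of 8), for which normexp gave 5. Liver minus heart slopes were called for 4 with normexp (8), and liver minus brain slopes for 4 with the 0 h heart array included (9). Brain was lower than liver in 8 with quantile normalisation, 8 with normexp and 3 without scaling (5). It was higher in 0 with the 75th percentile, quantile normalisation, normexp, arrays of at most 3 h or the animal as a block, in 2 with detection on at least 10 arrays and in 3 without scaling (1). Liver was lower than heart in 5 without scaling and in 0 with quantile normalisation or normexp (3), and higher in 3 with the 75th percentile, 3 with quantile normalisation and 3 with normexp (0). In liver of low against high RIN value 2 were lower with the 75th percentile, 1 with quantile normalisation and 1 with normexp (0).

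Signs turned for miR-20a-5p between liver and heart (0.723 with the 75th percentile, 1.23 with quantile normalisation, 1.016 with normexp). Between brain and liver they turned for miR-25-3p (−0.67, −1.89 and −1.149 in that order), and with the last pair also for miR-106b-5p (−1.265 and −0.843) and miR-93-5p (−1.29 and −0.783). Without scaling, the RIN slope was −0.166 for miR-17-5p, −0.017 for miR-19b-3p, −0.034 for miR-92a-3p and −0.038 for miR-93-5p, and the slope at RT was 0.111 for miR-17-5p. For miR-19b-3p, miR-92a-3p and miR-93-5p the RIN slope was −0.229, −0.324 and −0.238 with RIN values over 6 alone, and −0.107, −0.047 and −0.026 with the hours in the model.

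With 1 array or slide left out, counts ranged from 0 to 8 for the RIN value, 7 to 9 for RT, 0 to 8 for RT minus 4 °C, 7 to 8 for liver minus heart slopes and 0 to 9 for liver minus brain slopes. They ranged from 4 to 9 for brain below heart, 4 to 5 for brain below liver, 0 to 3 for brain above liver and 1 to 5 for liver below heart. Signal near background limits miR-17-5p and miR-18a-5p.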
